A study of Mus musculus with 2 samples.

Results

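Esrrb, Tbx3, Tcfcp2l1, Nr5a2 and Nr0b1 are transcription regulators of the naive state of mouse embryonic stem cells, and the occupancy of their promoters by Tcf3 was described here from chromatin immunoprecipitation on promoter arrays. The members were the non-control array spots annotated to these names, which gave 179 of 474380 spots and 5 of the 17096 genes named on the arrays. Tcfcp2l1 is the array's name for the gene now called Tfcp2l1. Naive embryonic stem cells can still form every tissue of the embryo, and a densely connected group of transcription factors holds them in that state. Tcf3, now named Tcf7l1, is the Tcf/Lef family member known for repressing genes of this group, and stabilised β-catenin, the mediator of Wnt signalling, relieves that repression. Tcf/Lef factors bind DNA through an HMG box at sequences with the core CTTTG.

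The cells were E14, a mouse embryonic stem cell line grown without feeder cells, with no genetic change or treatment named in the labels. Chromatin was cross-linked with formaldehyde and broken to fragments averaging 500 bp, and the immunoprecipitated DNA was labelled with Cy5 and the input DNA with Cy3 before both were hybridised to each array. Each of the 2 arrays was 1 sample and carried different spots, so every promoter was measured once, with no replicate and no control immunoprecipitation. The number of arrays therefore limits the precision, and no difference below has a test between samples. The labels name several antibodies without assigning one to the arrays, and Tcf3 is taken from the sample titles.

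Tbx3, Tcfcp2l1 and Nr5a2 lay on array 1, and Esrrb and Nr0b1 on array 2. Values are log2 ratios of Cy5 over Cy3, centred on each array's median, so that 1 stands for a 2-fold higher immunoprecipitate than at the median spot. Only spots measured in both channels were given a value, because elsewhere the software had written a substitute (surrogate) for a Cy5 signal that was not above background. A set is a spot with its nearest measured neighbour on each side within 1000 bp, hence 2 to 3 spots, and the SD given beside a set mean is the spread over those neighbouring spots and not over replicates. The arrays differed in signal, with 30.7% surrogate Cy5 values on array 1 and 51.7% on array 2. As reference genes, Axin2, a Wnt target that feeds back on the pathway, had a highest set mean of 2.62 ± 0.27 (SD, n = 3 spots), and Tcf7l1 itself had one of 2.50 ± 0.83 (n = 3 spots).

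A spot was called enriched when its set mean and its own ratio, or a pair of spots of the set, passed bounds taken from each array's scatter. Tbx3, Tcfcp2l1 and Nr0b1 each held called spots, whereas Esrrb and Nr5a2 held none. The count of 3 of 5 members stands beside 15.5% of all 16379 genes with a set, 18.4% of those on array 1 and 12.5% of those on array 2. Genes with more spots have more chances of a call, and 18.8% of genes with 25 to 50 spots were called, a range that all 5 members fall in with 29 to 45 spots. With surrogate values included the count was 1 of 5 (Tbx3), beside 15.4% of genes. After the median trend with GC content was subtracted it was 3 of 5, beside 14.8% of genes. Each called member had 2 called spots, where 54.2% of all called genes had 1, 31.6% had 2 and 14.2% had 3 or more.

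The spots that carry these calls are shown with their sequences first, since they locate the signal on the promoter. Coordinates are those of the array files, whose genome build the sources used here do not name, and sequences read along the plus strand. Capitals mark the Tcf/Lef core CTTTG or its complement CAAAG. For Tbx3 only the first 30 bases of each spot are shown.
Tbx3 chr5:118904824-118904872: agcgacgttccagtttccgacaccttcttt
Tbx3 chr5:118904983-118905027: gaccgtccagagccgccgagcagacgcccg
Tcfcp2l1 chr1:118486297-118486356: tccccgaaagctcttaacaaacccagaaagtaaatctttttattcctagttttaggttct
Tcfcp2l1 chr1:118488584-118488628: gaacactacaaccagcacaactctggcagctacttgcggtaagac
Nr0b1 chrX:81580265-81580324: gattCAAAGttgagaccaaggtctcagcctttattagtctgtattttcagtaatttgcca
Nr0b1 chrX:81580422-81580481: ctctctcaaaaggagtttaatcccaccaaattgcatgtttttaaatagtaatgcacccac

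Of these 6 called spots, the Nr0b1 spot at chrX:81580265-81580324 holds the core, in the longer form CTTTGAA on the minus strand. The other 5 whole spot sequences hold none. The highest spots of the members without a call were the following, and the Nr5a2 spot holds the core in 2 places.
Esrrb chr12:84359992-84360041: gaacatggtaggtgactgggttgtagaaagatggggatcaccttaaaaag
Nr5a2 chr1:136846651-136846695: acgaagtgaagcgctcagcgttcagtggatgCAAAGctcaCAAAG

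Tbx3, a T-box factor that represses differentiation genes, showed its signal as a short run of neighbouring spots. Its 45 spots covered chr5:118899415-118907868, and the 40 measured ones ranged from -0.89 to 2.98 with a median of 0.23. Going along the chromosome, the spots beginning at 118904454, 118904691, 118904824 and 118904983 gave 1.20, 1.18, 1.87 and 2.98. The signal thus exceeded 1 over 4 successive spots, and the spot that follows, at 118905105, lay at -0.65, inside the average fragment length from the highest one. That low spot read 184 in Cy5, near the median surrogate of 173 on array 1. The next ones, at 118905225 and 118905338, gave 0.82 and 1.22. The highest spot read 19050 in Cy5 and 2936 in Cy3, the brightest Cy5 signal of all 179 member spots. Its GC content was 68.9%.

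The highest set mean of Tbx3 was 2.01 ± 0.91 (SD, n = 3 spots), a 4.02-fold enrichment over chr5:118904691-118905027. A higher set mean was found in 7.28% of the genes on array 1. Beyond this run, single spots at 118901639 and 118906267 gave 1.78 and 1.57, and both were flanked by spots at or below 0.11. The set had a mean GC content of 56.4%, and with the GC trend subtracted its mean was 1.46 ± 0.67, still called. The call of Tbx3 was lost with the trend on intensity subtracted, where its highest set mean was 1.36, and with the scatter taken from both sides of the median. No promoter sequence of Tbx3 was used here, so these positions are not placed against its transcription start.

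Tcfcp2l1, a CP2-family factor that acts downstream of the cytokine LIF and Stat3, had the highest single spot of all members. The 31 measured of its 32 spots on chr1:118482945-118490978 ranged from -0.99 to 3.31 with a median of 0.06. That spot, chr1:118486297-118486356, read 5387 in Cy5 against 662 in Cy3, and only 0.277% of measured spots on array 1 had a higher ratio. It lay at -2138 bp from the transcription start, which the match of a spot to the RefSeq promoter placed at 118488464. The neighbours stood far below it, at 0.11 on the upstream side and 0.94 and 0.98 on the downstream side. The highest set mean was 1.74 ± 1.35 (SD, n = 3 spots) or 3.35-fold, and 13.7% of genes on array 1 had a higher one.

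A separate called spot of Tcfcp2l1, chr1:118488584-118488628, lay at 142 bp downstream of the start and gave 2.23, between neighbours of 1.15 and 0.83. This single spot was lower than the distal one, but the set means centred on them were close, at 1.40 ± 0.73 and 1.45 ± 1.66 (SD, n = 3 spots each). The neighbour at 0.83 carried an outlier or saturation mark. With the GC trend subtracted the spot near the start gave 1.94, between neighbours of 0.46 and -0.32, and was not called. The distal spot then gave 3.48 and kept its call. Between these places, 2 spots at 118487083 and 118487209 gave 1.41 and 1.00, and all 8 spots upstream of 118485556 lay between -0.33 and -0.88. The promoter of Tfcp2l1 is shown because a spot of 1.15 lies within it. In RefSeq (GRCm38.p6) the 250 bases before the start are chr1:118627695-118627944 on the plus strand.
Tfcp2l1 upstream: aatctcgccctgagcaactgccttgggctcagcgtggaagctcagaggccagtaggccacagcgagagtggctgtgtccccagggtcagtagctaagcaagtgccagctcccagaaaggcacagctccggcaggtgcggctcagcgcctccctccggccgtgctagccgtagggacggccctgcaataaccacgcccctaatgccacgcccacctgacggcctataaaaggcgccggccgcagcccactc

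This stretch holds no CTTTG on either strand. Its GC content was 65.2% and it held 16 CpG pairs, against medians of 52.4% and 6 over the 32851 RefSeq promoters.

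Nr0b1 is an atypical nuclear receptor without the usual DNA-binding domain that acts as a corepressor. It lay above the median of the measured spots of array 2 in 17 of its 18 measured spots. Its 38 spots covered chrX:81573340-81580951, and the measured ones ranged from -0.91 to 2.24 with a median of 0.97. The called spots at 81580265 and 81580422 gave 2.24 and 2.17, and the spot before them, at 81580163, gave 1.39. They lay 1867 and 2024 bp downstream of the start, within the gene, whose RefSeq length is 4173 bp. Exons and introns were not placed here. The pair gave a set mean of 2.21 ± 0.04 (SD, n = 2 spots) or 4.61-fold, the highest among the members, and 1.84% of genes on array 2 had a higher one. The 3 spots that follow them were surrogates.

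Further measured spots of Nr0b1 were high upstream, at the start and within the gene. At 81579643 and 81575321 the ratio was 2.06 in both cases, and just past the start, at 81578489 and 81578666, it was 2.78-fold and 2.55-fold, the former from a Cy5 signal of 197. Spots at 81579017 and 81579172, between these high places, gave 0.15 and -0.91. Nr0b1 thus had 9 of 18 measured spots above 1, beside 7 of 40 in Tbx3, 4 of 31 in Tcfcp2l1, 4 of 22 in Nr5a2 and 2 of 22 in Esrrb. These counts do not rank the members. A spot of weak Cy3 was measured only when its Cy5 cleared background, hence only at a high ratio. That floor also differed between the arrays, with a median Cy5 surrogate of 173 on array 1 and 197 on array 2.

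The signals behind the Nr0b1 values were weak. Its called spots read 478 and 434 in Cy5 and 118 and 112 in Cy3, while the median Cy5 surrogate of array 2 was 197. The spot at 81580422 also carried an outlier or saturation mark, and without marked spots the highest set mean was 1.82 with 1 called spot. A surrogate was written for 52.6% of the Nr0b1 spots, so that the median of 0.97 rests on the spots that were above background. Among 2281 genes of array 2 with 25 to 50 spots and 40% to 65% surrogates, the median of such gene medians was 0.05 and 0.745% exceeded Nr0b1. Among 386 genes of 25 to 50 spots on chromosome X it was 0.45, with a median surrogate share of 67.9%, and 10.1% exceeded Nr0b1. The part of signal strength and chromosome in the Nr0b1 values was not tested.

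**Figure D1:**
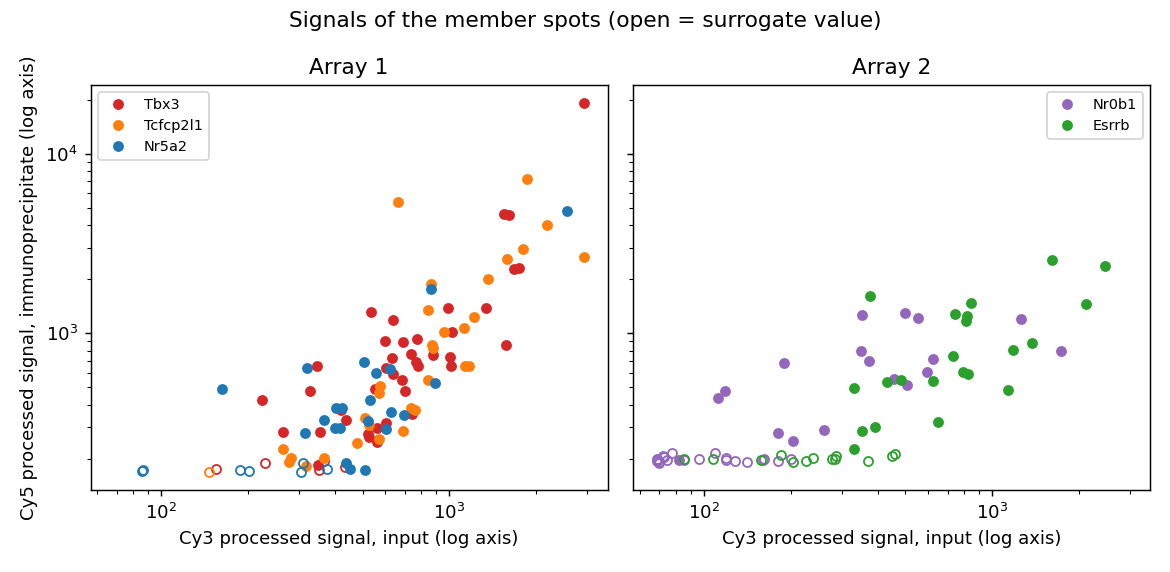
Cy5 processed signal (immunoprecipitate) against Cy3 processed signal (input) of each member spot, both in arbitrary units on log axes, for array 1 (left) and array 2 (right); open circles are spots with a surrogate value in a channel. The called Nr0b1 spots, at 478 and 434 in Cy5, lie near the floor of surrogates around 197, whereas the highest Tbx3 spot reaches 19050.

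The Nr0b1 promoter is shown as an example that holds the core and lies within the measured span. The same 250 bases of the 2 RefSeq promoter entries of Nr5a2, which was not called, hold the core in 1 and 2 places. The entry with 2 also holds the longer form CTTTGTT, and the Nr0b1 stretch holds no such longer form. The 250 bases before the Nr0b1 start are chrX:86191525-86191774 on the plus strand of GRCm38.p6, with CTTTG or CAAAG in capitals.
Nr0b1 upstream: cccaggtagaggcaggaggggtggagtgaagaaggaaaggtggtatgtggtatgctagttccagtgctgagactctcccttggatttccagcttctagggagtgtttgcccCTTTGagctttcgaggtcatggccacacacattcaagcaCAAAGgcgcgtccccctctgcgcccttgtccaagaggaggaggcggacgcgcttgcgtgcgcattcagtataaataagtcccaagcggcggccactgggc

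The core occurs here in 2 places, and 48.6% of all RefSeq promoters hold it within the same 250 bases. Of the spots that lie in this stretch, the one at 81578227 gave 0.43 and the one at 81578367 was a surrogate.

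Esrrb, an orphan nuclear receptor that binds estrogen-related response elements and sustains self-renewal, had 1 high spot and no call. The 22 measured of its 35 spots on chr12:84358213-84365920 ranged from -1.02 to 2.31 with a median of 0.08. The high spot, at -3484 bp from the start, read 1621 in Cy5 and 378 in Cy3. Its upstream neighbour gave 0.39, and the next measured spot downstream was over 1000 bp away. The set of 2 spots had a mean of 1.35 ± 1.36 (SD), or 2.55-fold, below the bound of 1.50 for 2 spots on array 2. The spot itself exceeded the single-spot bound of 2.12, but its neighbour lay below the neighbour bound of 0.88. A higher set mean was found in 20.5% of genes on array 2. Within 500 bp of the placed start the measured spots of Esrrb lay between -0.35 and 0.99.

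Nr5a2, the nuclear receptor LRH-1, which can act at the Pou5f1 promoter, had the lowest set mean of the members. Of its 29 spots on chr1:136846219-136853958, 22 were measured, with a range from -1.26 to 1.86 and a median of 0.03. The highest spot lay 1867 bp downstream of the start, within the gene, between neighbours of 0.73 and 0.09. Just upstream of the start, spots at 136848594 and 136848845 gave 1.28 and 1.31, on either side of one at -0.50. The high spots of Nr5a2 thus alternated with low ones. Its highest set mean was 1.05 ± 0.89 (SD, n = 3 spots) or 2.06-fold, and 52.6% of genes on array 1 exceeded it. Esrrb and Nr5a2 each have 2 RefSeq promoter entries, of which 1 lies inside the tiled span, so the other start of each was not measured.

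**Figure D2:**
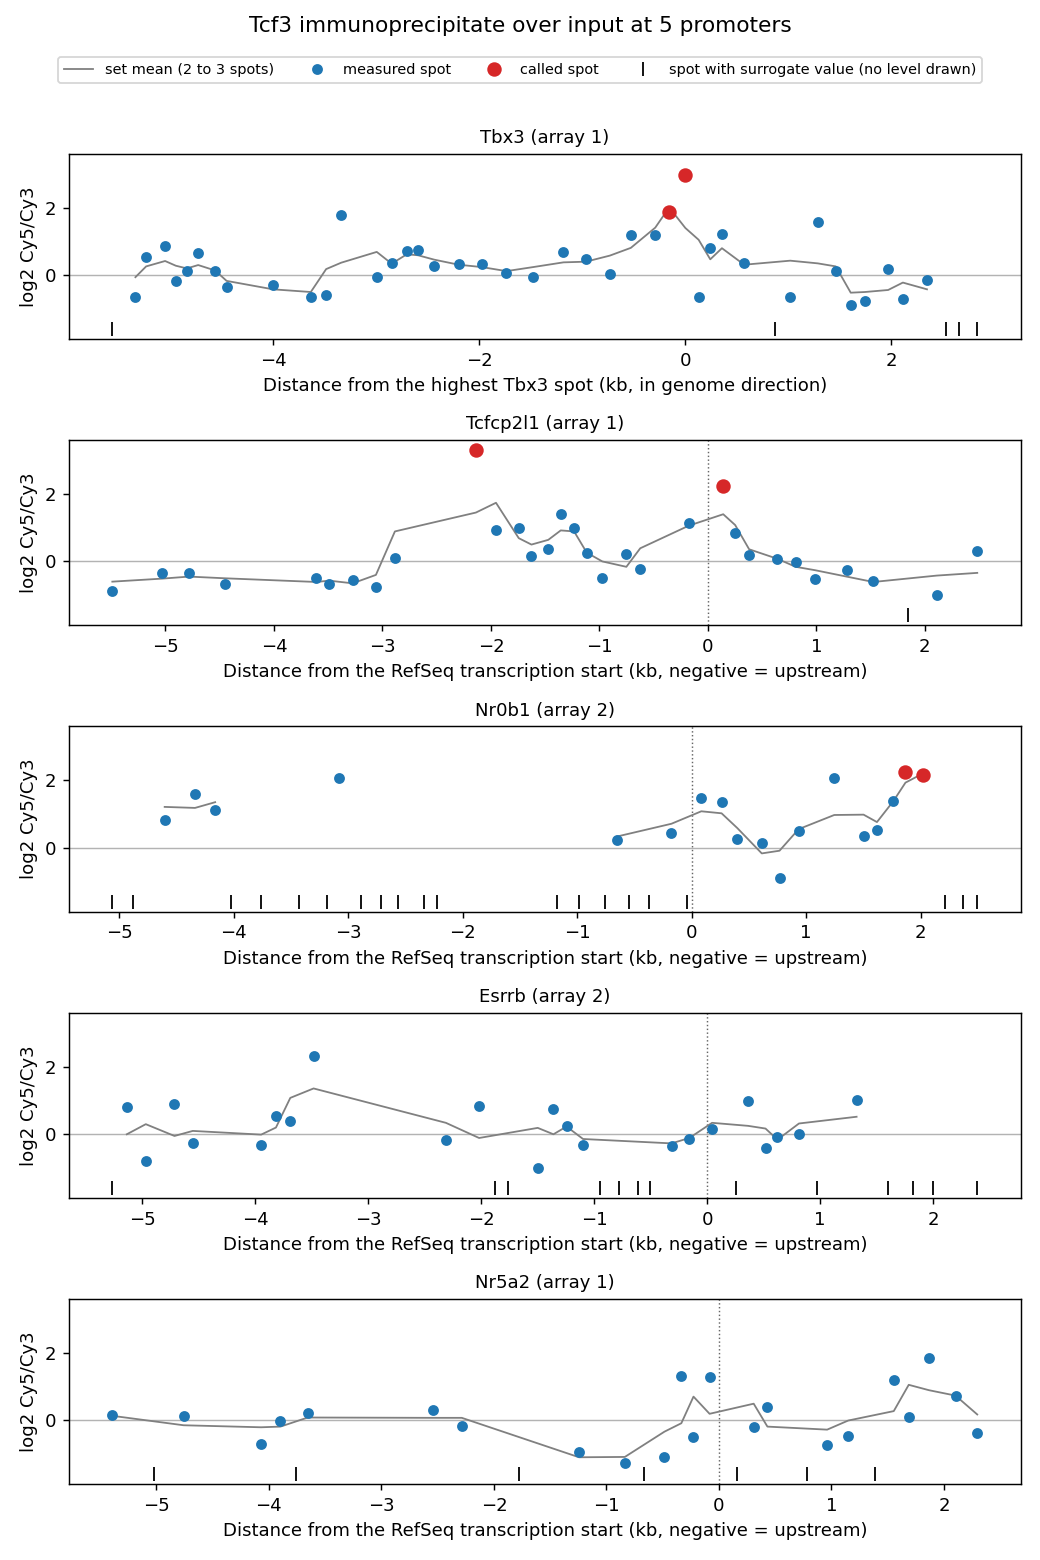
Log2 Cy5/Cy3 of each measured spot (blue), called spots (red) and the set mean (grey line) against distance in kb from the RefSeq start, or from the highest spot for Tbx3; ticks at the bottom mark surrogate spots, which have no level. Called spots stand at 1.87 and 2.98 in Tbx3, 3.31 and 2.23 in Tcfcp2l1, and 2.24 and 2.17 in Nr0b1, and none is seen in Esrrb and Nr5a2.

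The order of the highest set means, from Nr0b1 (2.21) over Tbx3 (2.01), Tcfcp2l1 (1.74) and Esrrb (1.35) to Nr5a2 (1.05), is not firm. Each step between neighbours in it is smaller than the SD over spots of at least one of the pair, and the arrays were scaled separately. With surrogate values included, Nr0b1 gave 1.85 and Tcfcp2l1 1.70, both no longer called, and Tbx3 gave 1.97 and kept its call. In Tcfcp2l1 the higher neighbour of the distal spot then stood just under the neighbour bound of 0.92, and the spot near the start, at 2.19, under the single-spot bound of 2.22. In the main setting they had passed narrowly, at 0.94 against 0.91 and at 2.23 against 2.20. The lower called spot of Tbx3 had likewise passed the bound for a pair of spots narrowly, at 1.87 against 1.83. With the GC trend subtracted the order was Nr0b1 (2.20), Tcfcp2l1 (1.82), Esrrb (1.59), Tbx3 (1.46) and Nr5a2 (1.02). Esrrb was then above Tbx3 but not called.

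**Figure D3:**
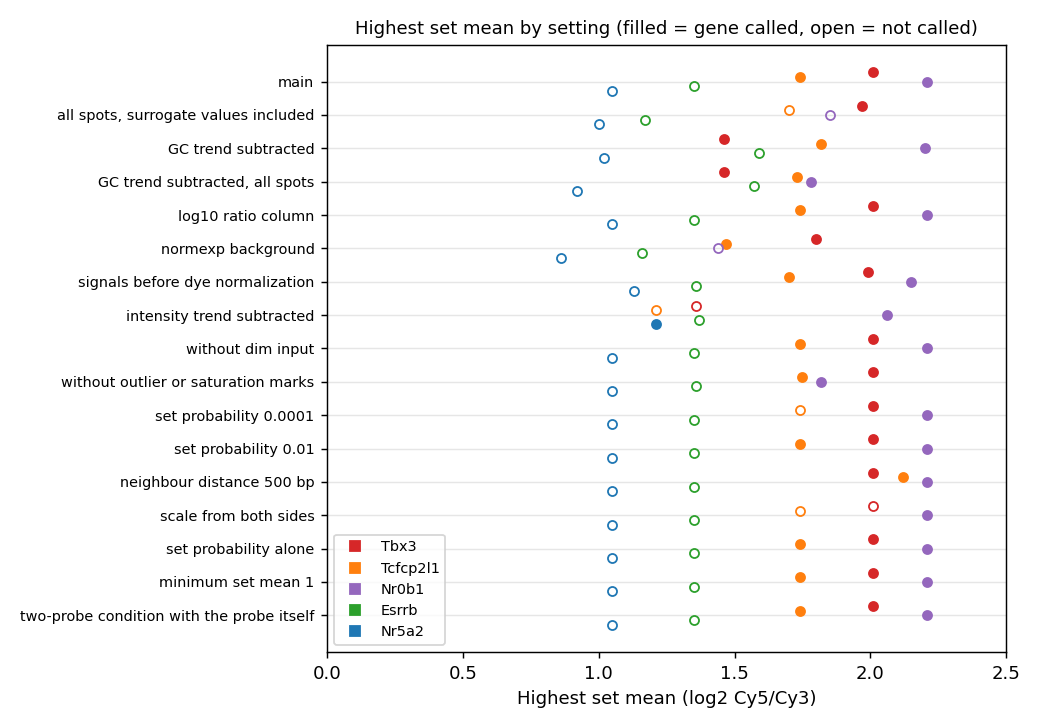
Highest set mean (log2 Cy5/Cy3) of each member under the main setting and each alternative, with filled circles where the gene was called. Esrrb is open under every setting shown, Nr5a2 is filled under the intensity trend at 1.21, and Tbx3 and Nr0b1 are filled under 14 of the 16 alternatives.

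The called spots were set against the transcription start where it could be placed, which left out Tbx3. Starts were placed for 8429 genes, and there 3.99% of measured spots within 500 bp of the start were called (95% Wilson interval 3.79% to 4.21%, for counting error only). From -4000 to -2000 bp the share was 0.928% (0.802% to 1.07%), and from 2000 to 3000 bp it was 0.736% (0.581% to 0.933%). The median GC content of the spots was 50% near the start and 42.4% and 43.4% in these outer ranges, and its part in the shares was not tested. Of the 4 called member spots with a placed start, 1 of Tcfcp2l1 lay within 500 bp, 1 lay in the upstream range, and the pair of Nr0b1 lay at 1867 and 2024 bp.

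**Figure D4:**
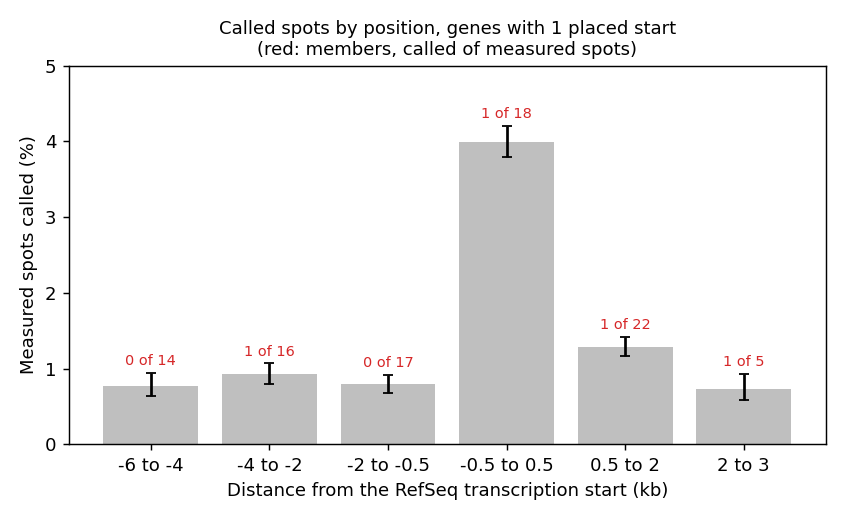
Percent of measured spots called, by distance in kb from the RefSeq start, over 8429 genes with 1 placed start; error bars are 95% Wilson intervals and red labels give the members' called of measured spots in each range. The bar within 500 bp of the start reaches 3.99%, above all others, and holds 1 of the 4 placed called spots of the members.

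Tcf/Lef motifs were searched on both strands in every member spot. The word CTTTGAT, or one with TT, AA or TA in place of its final AT, occurred in 6 of 179 member spots, where 5.69% of all spots held them. Nr5a2 and Nr0b1 had 2 such spots each, Esrrb and Tbx3 1 each and Tcfcp2l1 none. The shorter core, which is contained in these words, occurred in 25 of the 179 member spots, where 17.2% of all spots held it. By gene the count ran from 2 in Esrrb to 7 in Nr5a2. The member with most core matches thus had no call, and Tcfcp2l1 with the highest spot had no long word. These counts depend on spot length. Among all spots the long words were in 7.53% of 60-base and 1.63% of 45-base spots, and the core in 18.3% and 10.9%. The part of spot length in the members' counts was not tested. Over all 4203 called spots the long words were in 3.43% (95% Wilson interval 2.92% to 4.02%), against 2.44% of uncalled spots of like GC content. The core was in 11.1% of called spots (10.2% to 12.1%) and 10.2% of such uncalled spots, at the edge of the interval. Spots leave gaps between them, and sequence in the gaps was not searched.

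Other genes of the pluripotency network were described from a list of 34, of which 32 were on the arrays. The list was written with earlier results of these data known, so its counts may restate that choice. In that list 20 genes were called (62.5%), beside 15.5% of all genes and 18.8% of genes with 25 to 50 spots. The median highest set mean was 1.79 against 0.98 over all genes and 1.06 over genes of 25 to 50 spots. The highest 4 were Rif1, a chromatin factor that times replication, at 3.11 ± 0.41, Gbx2, a homeobox factor, at 3.00 ± 1.22, Klf2, a Krüppel-like factor, at 2.87 ± 1.09, and Mycn, a Myc-family factor, at 2.83 ± 0.46 (SD, n = 3 spots each). All members lay below these 4. Gbx2 had 7 called spots, Mycn 5, Rif1 4 and Klf2 2, and each called member had as many as Klf2. With surrogates included 15 of the 32 were called, beside 15.4% of all genes, and with the GC trend subtracted 21, beside 14.8%.

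Of the members' relatives by protein family 6 of 27 were called (22.2%), with a median highest set mean of 1.06. Both are near the values of genes with 25 to 50 spots, of which 18.8% were called with a median of 1.06. With the GC trend subtracted 4 of the 27 were called (14.8%), the same share as over all genes. The difference between the lists was not tested. The called relatives were the T-box genes Tbx1 (2.11 ± 1.16) and Tbx20 (1.55 ± 0.87), the orphan receptors Nr2f2 (1.91 ± 1.00), Nr2f1 (1.86 ± 0.07, n = 2 spots) and Nr0b2 (1.55 ± 1.22), and the grainyhead factor Grhl3 (1.67 ± 1.45). Apart from Nr2f1, these are means ± SD over 3 spots. In 5 of these 6 the GC content of the set was over 60%, against 36.7% to 56.4% in the members' sets.

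Of 7 relatives taken as close to a member, 1 was called, beside 15.5% of all genes and 18.8% of genes with 25 to 50 spots. A count this small does not set these relatives apart from genes in general. Esrra and Esrrg, of the same subfamily as Esrrb, had highest set means of 0.64 and 1.19, neither called. Nr5a1, the steroidogenic counterpart of Nr5a2, had 1.06 and no call. Nr0b2, the other receptor without a DNA-binding domain, was called like Nr0b1, at 1.55 with a set GC content of 67.4%, and its value fell to 0.46 and was not called once the GC trend was subtracted. Tbx2 had 0.95, and Tcfcp2 and Ubp1, the CP2-family relatives of Tcfcp2l1, had 0.57 and 0.58. These 3 were not called. The T-box genes Tbx4 (0.99) and Tbx5 (1.43) were not counted among the 7 and were not called either. With the GC trend subtracted Tbx5 was called, at 1.65, and Tbx4 was not.

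**Figure D5:**
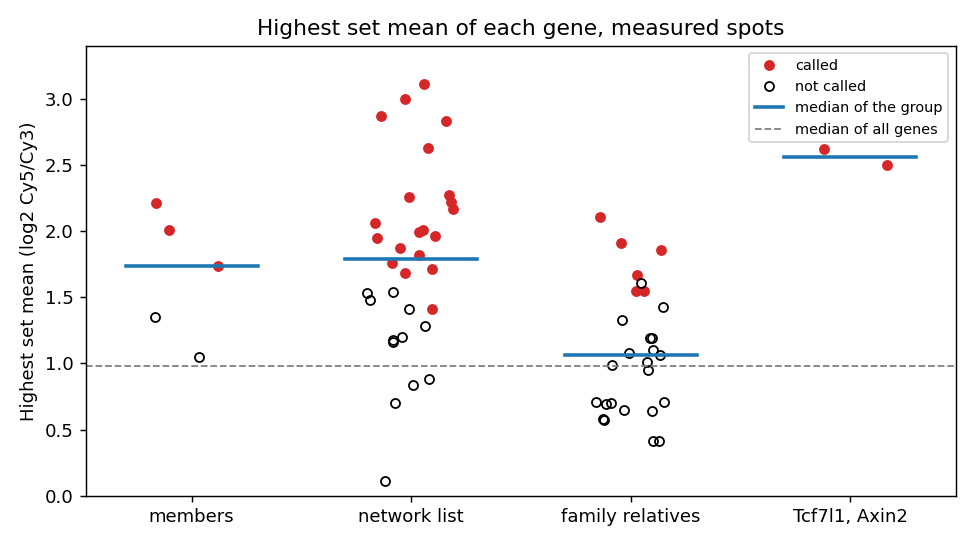
Highest set mean (log2 Cy5/Cy3) of each gene in the 5 members, the network list, the family relatives and the reference genes, with called genes in red, each group's median as a blue line and the median of all genes (0.98) dashed; points are spread sideways at random. The medians are 1.74 for the members, 1.79 for the network list and 1.06 for the relatives. Members and lists were chosen with earlier results of these data known.

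Genes with the nearest highest set mean on the same array are given as examples of each member's level, and do not show how common it was. For Nr0b1 they were Rdx (2.21) and Brwd1 (2.20), both called, for Tbx3 D6Wsu176e and Rab2 (2.01 each, both called), and for Tcfcp2l1 Slc27a2 (1.75) and Klf13 (1.74), neither called. The called spots of Tcfcp2l1 had set means of 1.45 and 1.40, since the spot at the centre of its highest set was not called itself. For Esrrb they were Rtn4, not called, and Gm323, called, both at 1.35, and for Nr5a2 Nob1 (1.05) and Ugt1a7c (1.04), neither called.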

How the data were processed

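Amplified immunoprecipitate (Cy5) and input (Cy3) were hybridised to 2 Agilent promoter arrays of different content, per the labels. Per the file headers, the authors used Agilent Feature Extraction 9.1.1.1. Its processed intensity of each channel, as deposited, had background subtracted, spatial trends removed and a linear dye factor applied, with a surrogate in place of signals not above background. The log10 ratio deposited by the authors was used as an alternative, and the deposited 0 and 1 marks, of other unit, to leave out non-uniform spots.

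Here log2 ratios were centred per array over 164386 and 114386 measured spots. The scale came from values below the median. A spot was called when its set mean had a normal upper-tail probability under 0.001 and either its own was under 0.001 with a neighbour under 0.1, or 2 spots of the set were under 0.005. The probabilities served only as a calling rule. A gene was called when the annotation of a called spot named it. Called spots within 1000 bp formed 1 region.

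Starts were placed by exact matches of spot sequences to RefSeq promoters (GRCm38.p6), with entries for 4 of 5 members. Matched spots read with the plus strand in 100% (array 1) and 99.5% (array 2) of cases. The GC trend was the median per 2% bin.

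Members and lists were chosen with earlier results of these data known. Prdm14, Dppa2, Esr2 and Rxra were not analysed here. Named genes were the members, the 4 highest of each list, 7 close relatives, Tcf7l1, Axin2 and each member's nearest genes by set mean. The other called relatives, Tbx4 and Tbx5 were named after their values were seen. Of 17 other settings, 2 were added after the data were seen. Python 3.11.15, pandas 2.3.3, scipy 1.17.1, statsmodels 0.14.6, R 4.3.3 and limma 3.58.1 (normexp, offset 50) were used.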

Additional observations from a re-analysis of the deposited data

How the results depend on the processing

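The count of 3 called members fell to 1 with all spots and to 1 with the scale taken from both sides of the median; it was 2 or 3 under the other alternatives. The share of all genes called was 15.4% and 10.6% under these settings, against 15.5%. Where 2 members were called it was 17.6% (intensity trend subtracted), 22% (normexp) and 11.5% (set probability 0.0001). With the intensity trend subtracted these 2 were Nr0b1 and Nr5a2, so that the called members changed as well as their count. Over 16 alternatives Tbx3 was called in 14, Nr0b1 in 14, Tcfcp2l1 in 12, Nr5a2 in 1 and Esrrb in 0. Highest set means ranged from 1.36 to 2.01 for Tbx3, 1.44 to 2.21 for Nr0b1, 1.21 to 2.12 for Tcfcp2l1, 1.16 to 1.59 for Esrrb and 0.86 to 1.21 for Nr5a2. Nr0b1 lost its call with all spots (1.85) and with normexp background correction (1.44), Tbx3 with the intensity trend subtracted (1.36) and the scale from both sides, and Tcfcp2l1 with all spots (1.70), the intensity trend subtracted (1.21), the scale from both sides and a set probability of 0.0001. Without marked spots Tcfcp2l1 and Nr0b1 kept 1 called spot each. The 6 called relatives became 3 with the intensity trend subtracted and 3 with the scale from both sides, and the network list stayed within 1.5 times its count. The share of all genes called was 28.2% with the set probability alone. The cause of these shifts was not tested. Using all spots changed the centre and the bounds as well as the sets: the single-spot bound was 2.22 in place of 2.20 on array 1 and 2.40 in place of 2.12 on array 2. No paired analysis was possible because each array is 1 sample with its own spots. Surrogates left 18 of 38 Nr0b1 spots and 22 of 35 Esrrb spots with a value.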
